A study of Mus musculus with 20 samples.

Results

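The 42 genes described here copy the DNA of a dividing cell (S phase) or part its chromosomes (mitosis). They are a list by name, each found as a symbol in a deposited table of gene counts with 22068 symbols. All 42 passed the filter on low counts that left 13309 genes for testing. By role, 16 act in S phase (10 in origin licensing and at the replication fork, 3 in the supply of deoxynucleotides, 3 as the cyclins E and their kinase), 4 are transcription factors of the cycle, and 22 act in mitosis.

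A resting lymphocyte stands outside the cell cycle and keeps most of these genes low. When it enters the cycle, E2F transcription factors switch on the S phase genes first. The mitotic genes follow later under the MuvB, B-Myb and FoxM1 complexes. These act through a promoter element called the cell cycle genes homology region (CHR), and the CCAAT box is a separate promoter element. In the quiescent cell the DREAM complex and the RB family hold both groups down. Naive CD4 T cells divide rarely, and regulatory T cells (Treg) are known to contain more dividing cells in the same organs.

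The libraries come from CD4 T cells of the lymph nodes and spleen of adult mice (C57BL/6, 8 to 12 weeks old) that carry a green fluorescent reporter for Foxp3, the transcription factor of Treg. Naive cells were sorted as reporter-negative CD44-low cells, and within them the 15% with the least and the 15% with the most surface CD5, an inhibitor of T cell receptor signalling whose level follows the strength of contact with self. These CD5lo and CD5hi cells were lysed right after the sort (fresh) or after 22 hours in culture with interleukin 7, a survival factor, at 10 ng per mL (rested). Treg were sorted as reporter-positive cells and lysed right after the sort. The naive groups therefore differ from Treg in the CD44 gate as well as in Foxp3. All sorts left out cells with CD69, an activation marker, and with surface markers of other lineages. Each of the 5 groups has 4 libraries, so there are 16 naive libraries, and n is 4 for each mean ± SD below. No label ties a library to single animals, so the p-values measure the spread between libraries.

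Promoters come first, as a search of the 2 sets of genes for strings of letters. RefSeq promoter windows (mouse build GRCm38.p6, 250 bases before to 50 after the annotated start) were matched by symbol for 34 of the 42 genes, with E2f2 and Mcm7 having 2 windows each. They were searched on both strands for E2F letters (TTTCCCGC, TTTCGCGC, TTTGCCGC, TTTGGCGC), CHR letters (either TTTGAA or TTCGAA) and the letters CCAAT. E2F letters stood in 6 of 13 S phase genes, 1 of 18 mitosis genes and 2.6% of all 27025 genes with a window. CHR letters stood in 3 of 13 S phase genes, 14 of 18 mitosis genes and 21.66% of all. CCAAT stood in 10 of 13 S phase genes, 15 of 18 mitosis genes and 41.06% of all. A match is a string of letters and not a site shown to be used, and the short strings are common. The 180 bases before the start are printed as examples for 2 S phase and 5 mitosis genes that carry motif letters. Mcm5 is printed to show the paired E2F letters beside those of Mcm6, and the levels of the others are described in full below. Other genes described in full are not printed, and some of these carry the letters of their set. Others do not, such as Ccnb1 and Cenpe (no CHR letters) and Pcna, Rrm1, Rrm2 and Tyms (no E2F letters). Capitals mark the motif letters, and 2 E2F strings that overlap on opposite strands appear as 1 longer run.
Mcm5, chr8:75109329-75109508, plus strand: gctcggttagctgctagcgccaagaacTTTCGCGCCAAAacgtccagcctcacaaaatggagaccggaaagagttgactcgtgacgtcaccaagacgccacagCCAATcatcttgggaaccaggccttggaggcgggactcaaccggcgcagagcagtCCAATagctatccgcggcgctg
Mcm6, chr1:128359706-128359885, minus strand: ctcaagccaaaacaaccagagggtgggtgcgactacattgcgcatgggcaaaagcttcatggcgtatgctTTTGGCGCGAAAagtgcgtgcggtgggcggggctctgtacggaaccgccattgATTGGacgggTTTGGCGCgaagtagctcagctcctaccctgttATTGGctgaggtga
Cdk1, chr10:69352913-69353092, minus strand: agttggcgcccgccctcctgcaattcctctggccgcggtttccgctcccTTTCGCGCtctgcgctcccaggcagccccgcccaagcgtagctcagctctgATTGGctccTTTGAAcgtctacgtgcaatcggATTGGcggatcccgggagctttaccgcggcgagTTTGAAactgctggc
Ccnb2, chr9:70421555-70421734, minus strand: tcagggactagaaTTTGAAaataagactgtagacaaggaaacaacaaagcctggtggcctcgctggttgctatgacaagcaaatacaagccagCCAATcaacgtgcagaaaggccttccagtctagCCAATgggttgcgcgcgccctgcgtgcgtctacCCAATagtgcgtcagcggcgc
Kif11, chr19:37376202-37376381, plus strand: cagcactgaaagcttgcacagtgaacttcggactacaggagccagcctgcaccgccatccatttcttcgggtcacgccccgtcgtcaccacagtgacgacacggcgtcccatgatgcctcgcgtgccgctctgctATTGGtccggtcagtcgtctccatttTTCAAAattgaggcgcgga
Mki67, chr7:135716380-135716559, minus strand: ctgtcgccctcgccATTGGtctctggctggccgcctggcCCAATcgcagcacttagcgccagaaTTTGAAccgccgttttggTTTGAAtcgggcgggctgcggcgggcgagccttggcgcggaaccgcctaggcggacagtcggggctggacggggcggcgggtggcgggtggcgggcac
Top2a, chr11:99024190-99024369, minus strand: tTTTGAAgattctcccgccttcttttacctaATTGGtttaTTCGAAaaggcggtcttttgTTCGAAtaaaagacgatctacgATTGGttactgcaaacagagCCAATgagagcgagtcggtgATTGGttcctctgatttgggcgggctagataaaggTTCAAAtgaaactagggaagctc
Mcm5 and Mcm6, 2 subunits of the helicase loaded at origins, carry E2F letters and CCAAT and no CHR letters in their windows. The 5 mitosis genes printed carry CHR letters with CCAAT, and Cdk1 is the 1 mitosis gene of the 18 with E2F letters too.

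**Figure D1:**
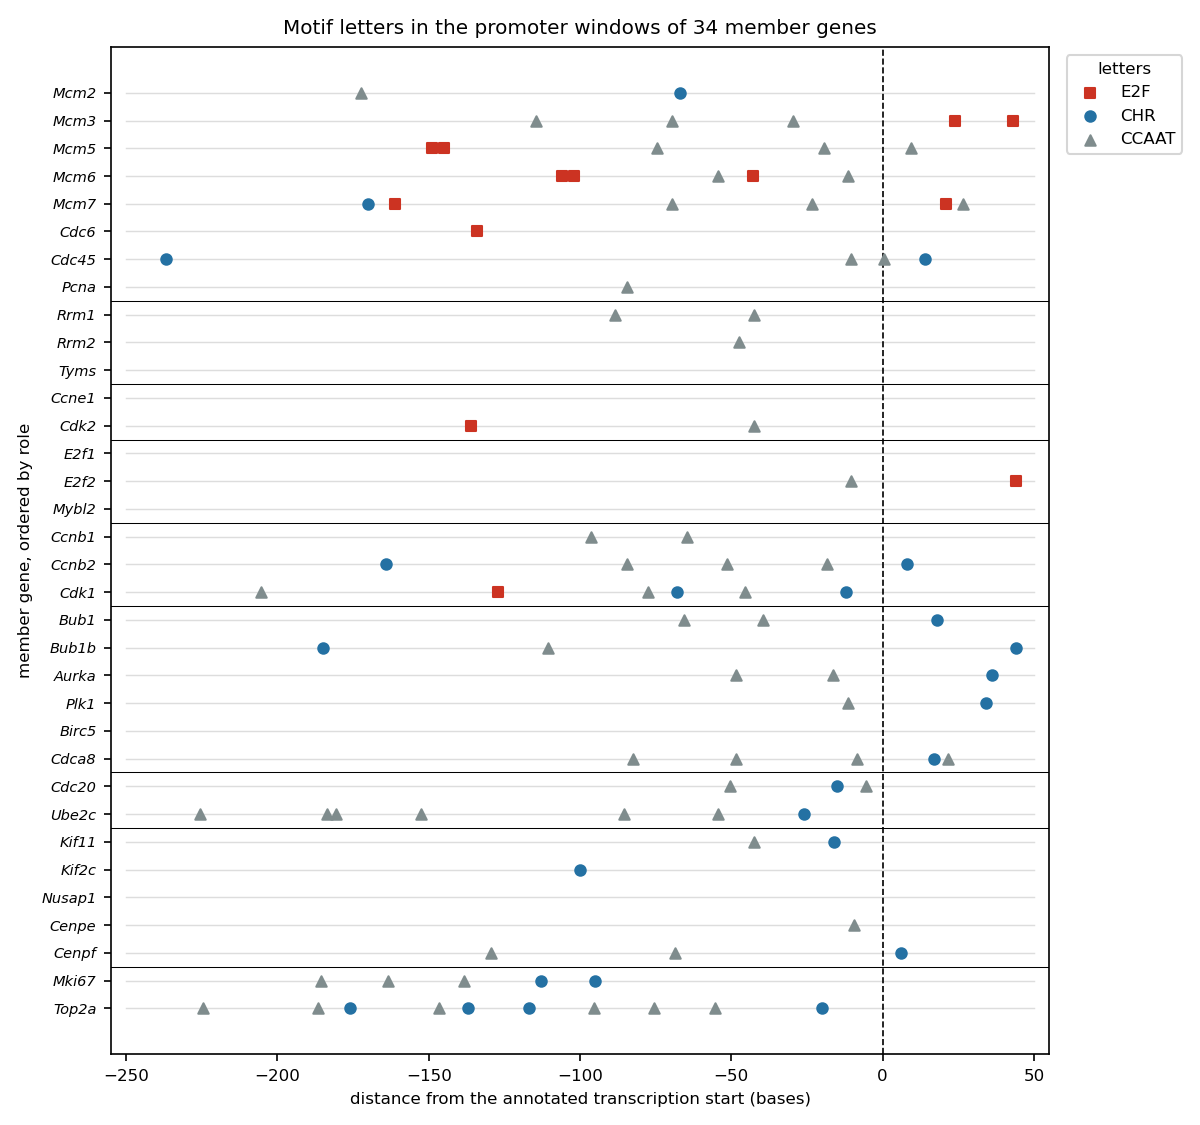
Position of motif letters in the promoter windows of 34 of the 42 genes (first window for E2f2 and Mcm7). The x axis is the distance in bases from the annotated transcription start (dashed line), each row is a gene in the order of its role, red squares are E2F letters, blue circles CHR letters and grey triangles CCAAT. E2F letters lie in 6 of 13 S phase genes at the top and CHR letters in 14 of 18 mitosis genes below.

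The libraries held 38211406 to 64477566 counts each. The CD4 T cell list (Cd3d, Cd3e, Cd3g, Cd4, Lck, Cd28, Cd2) summed to 2891 to 4169 CPM (read counts brought to a common library size) over the 20 libraries, and Foxp3 averaged 722 ± 38.0 CPM in Treg and 22.4 ± 1.02 to 28.6 ± 2.77 in the naive groups. The labels describe every library as pooled from both sexes, yet only 11 of 20 carried Y-linked reads. These were the 8 fresh naive libraries and replicate 3 of each other group, with 326 to 405 CPM over 4 Y-linked genes. The other 9 libraries had at most 0.149 CPM and 755 to 1736 CPM of Xist. Rested and Treg libraries therefore differ from fresh naive ones in this respect too, and results that a term for Y-linked reads removes are named below. Within a group only replicate 3 of the rested and Treg groups differs from the rest, so that term rests on these libraries.

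In the naive groups the mitosis genes were few in reads. The 22 of them together took 54.5 to 59.0 CPM per library in fresh CD5lo, 71.5 to 80.0 in fresh CD5hi, 46.1 to 50.5 in rested CD5lo, 65.8 to 74.7 in rested CD5hi and 161 to 224 in Treg. In this sum Treg stood above every naive library, and CD5hi above CD5lo in both states. A few genes carried much of it. Mki67 and Top2a together took 12.7 to 14.8 CPM in fresh CD5lo, 21.0 to 30.0 in fresh CD5hi and 74.1 to 106 in Treg. When rested they took 6.24 to 8.89 CPM in CD5lo and 15.9 to 19.6 in CD5hi cells. Kif20a averaged 13.3 ± 0.516 CPM in fresh CD5lo and 20.9 ± 1.70 in Treg. The 10 licensing and fork genes together showed another order. They took 483 to 537 CPM in fresh CD5lo, 515 to 559 in fresh CD5hi, 584 to 725 in rested CD5lo, 614 to 742 in rested CD5hi and 569.5 to 591 in Treg, so the 8 rested libraries lay above the 8 fresh ones. The rise of this sum lay in Mcm6, Mcm7 and Pcna, and the set as a whole did not rise. With resting the median log2 fold change of the 10 genes was -0.06 in CD5lo and -0.08 in CD5hi cells. In each, 4 of the 10 had a positive change. The test called 3 higher and 0 lower in CD5lo, and 3 higher and 2 lower in CD5hi cells. In bulk RNA fewer cycling cells and less RNA of a gene per cell cannot be told apart.

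**Figure D2:**
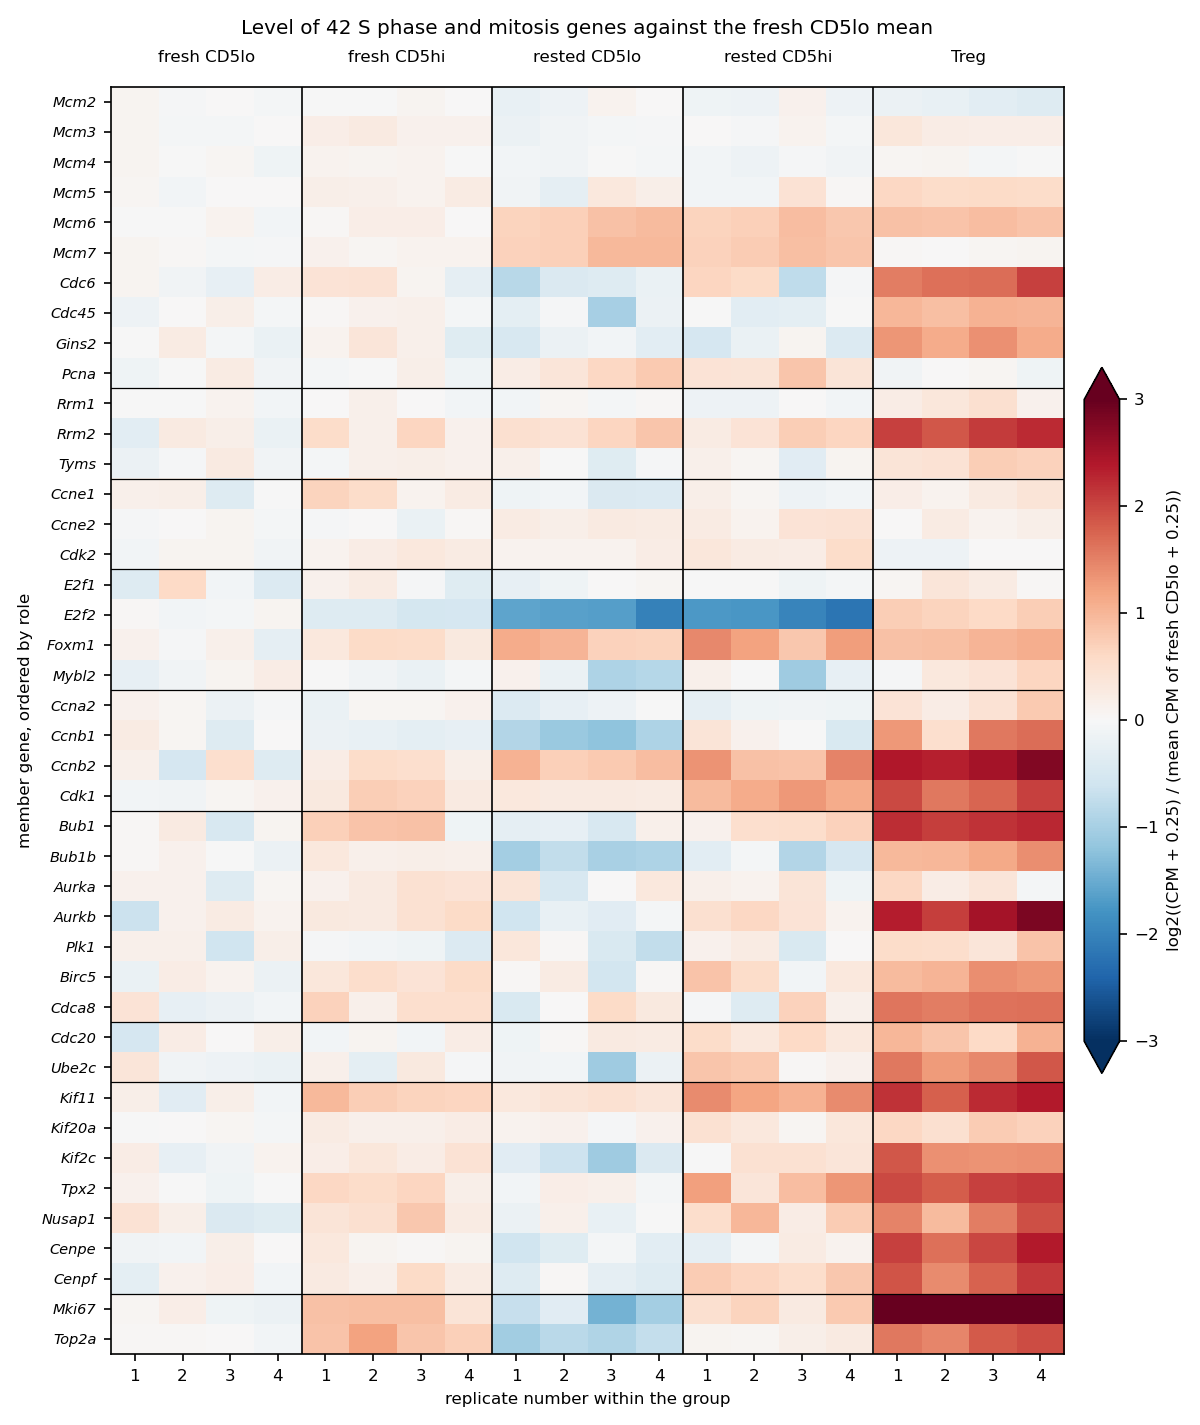
Level of the 42 genes in each of the 20 libraries as log2 of (CPM + 0.25) over (the fresh CD5lo mean + 0.25). Rows are genes by role, columns are libraries by group and replicate number, red is above and blue below the fresh CD5lo mean, and colours end at 3 in each direction, past which Mki67 lies in all Treg libraries. Treg are red over most mitosis rows, and the rested groups are red in Mcm6 and Mcm7 and blue in E2f2.

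The counts of genes called by edgeR's quasi-likelihood test at a Benjamini-Hochberg adjusted p under 0.05 were as follows. When fresh, CD5hi cells had 7 of the 42 genes higher and 1 lower than CD5lo cells, against 6.86% higher and 4.59% lower among all genes tested. All 4 libraries of CD5hi lay above all 4 of CD5lo for 13 of the 42 genes, against 11.0% of all genes. When rested, CD5hi cells had 11 genes higher and 0 lower, against 4.74% and 3.46% of all genes, and each of the 11 is a mitosis gene. At an unadjusted p under 0.05 0 of the 42 were lower in rested CD5hi cells, DESeq2 called 0 lower, and the fit with pairs called 1 (E2f2). The libraries were parted for 12 genes, against 5.24% of all genes. After resting, CD5lo cells had 8 genes higher and 6 lower than fresh, against 26.9% and 27.3% of all genes. CD5hi cells had 10 higher and 6 lower, against 26.2% and 26.2%. Neither share stands above that of all genes. Treg had 32 genes higher and 1 lower than fresh CD5lo cells, against 29.2% and 29.4%, and 31 higher and 2 lower than fresh CD5hi cells, against 27.5% and 26.6%. These last 2 comparisons share the Treg libraries. The CD5hi-to-CD5lo difference itself changed with resting for 1 gene, Ccnb1, which moved up, against 0.113% of all genes up and 0.338% down.

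**Figure D3:**
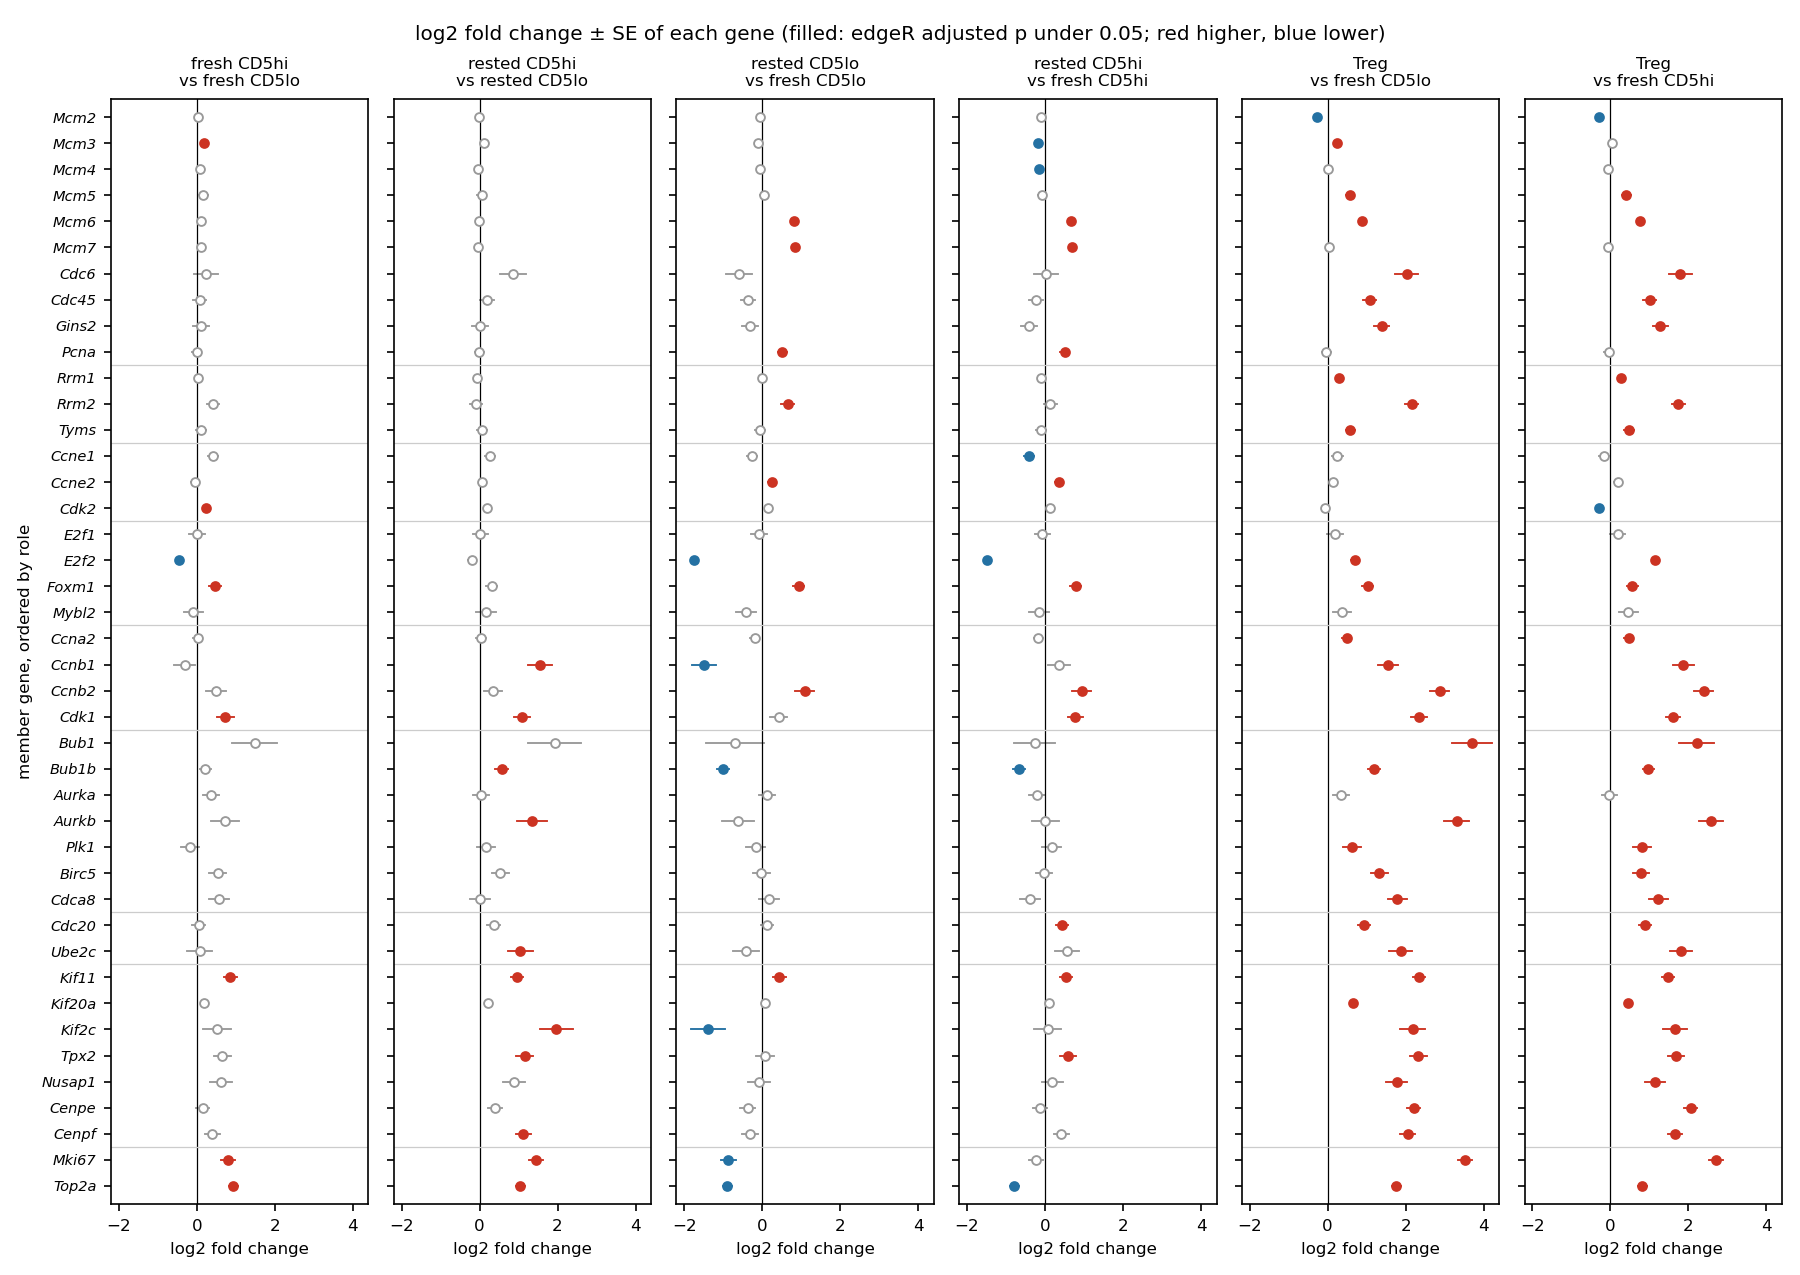
The log2 fold change (x axis) of each of the 42 genes (rows, by role) in 6 comparisons (panels), with bars of 1 SE. Filled points passed the edgeR test at an adjusted p under 0.05 (red higher, blue lower), open points did not. In both Treg panels 21 of 22 mitosis genes are red, and in the rested CD5hi against CD5lo panel the 11 filled points are all mitosis genes.

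Licensing of origins begins when Cdc6 helps to load the Mcm2 to Mcm7 helicase. Cdc45 and the GINS subunit Gins2 then turn it into an active fork helicase, and Pcna is the clamp that holds polymerases on DNA. Mcm6 was at 67.1, 67.7, 72.7 and 64.2 CPM in fresh CD5lo libraries 1 to 4, 69.3, 78.2, 78.5 and 68.9 in fresh CD5hi, 109, 111, 124 and 131 in rested CD5lo, 107, 112, 129 and 119 in rested CD5hi and 125, 123, 128 and 123 in Treg. Mcm7 was at 66.2, 64.1, 60.0 and 60.9 CPM in fresh CD5lo libraries 1 to 4, 69.2, 65.5, 67.2 and 67.5 in fresh CD5hi, 101, 103, 123 and 124 in rested CD5lo, 102, 106, 117 and 112 in rested CD5hi and 64.2, 62.9, 65.7 and 66.3 in Treg. All 8 rested libraries lay above all 8 fresh ones for both genes, while CD5lo and CD5hi overlapped. Treg reached the rested range for Mcm6 and stayed in the fresh range for Mcm7. With resting, the log2 fold change of Mcm6 was 0.81 ± 0.07 (adjusted p = 2.06e-09) in CD5lo and 0.66 ± 0.07 (adjusted p = 4.15e-08) in CD5hi cells, and in Treg it was 0.88 ± 0.07 (adjusted p = 2.24e-10) against fresh CD5lo and 0.76 ± 0.07 (adjusted p = 2.75e-09) against fresh CD5hi. For Mcm7 it was 0.84 ± 0.06 (adjusted p = 3.96e-10) and 0.70 ± 0.06 (adjusted p = 7.73e-09) with resting, and Treg differed from fresh CD5lo by 0.04 ± 0.06 (adjusted p = 0.567), which did not pass. Mcm7 shares exon sequence with Ap4m1 and Cops6 on the opposite strand, whose reads cannot be separated from its own here. Pcna was at 115, 125, 149.5 and 117 CPM in fresh CD5lo libraries 1 to 4, 121, 126, 144 and 116 in fresh CD5hi, 148, 162, 194 and 218 in rested CD5lo, 167, 164, 224 and 166 in rested CD5hi and 117, 127, 131 and 116 in Treg. Rested CD5hi lay above fresh CD5hi without overlap, rested CD5lo overlapped fresh CD5lo by 1 library, and Treg fell among the fresh libraries. With resting, Pcna had a log2 fold change of 0.52 ± 0.11 (adjusted p = 0.000709) in CD5lo and 0.51 ± 0.11 (adjusted p = 0.000828) in CD5hi cells. The library values of Mcm6, Mcm7 and Pcna are given in full as a choice made after their values were seen.

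The loading and firing factors took another course and were highest in Treg. Cdc6 was at 0.851, 0.715, 0.626 and 0.953 CPM in fresh CD5lo libraries 1 to 4, 1.12, 1.15, 0.851 and 0.616 in fresh CD5hi, 0.330, 0.523, 0.543 and 0.657 in rested CD5lo, 1.38, 1.29, 0.362 and 0.760 in rested CD5hi and 2.78, 2.98, 3.06 and 4.07 in Treg. Cdc45 was at 2.04, 2.31, 2.66 and 2.22 CPM in fresh CD5lo libraries 1 to 4, 2.35, 2.55, 2.59 and 2.20 in fresh CD5hi, 1.85, 2.25, 1.04 and 2.01 in rested CD5lo, 2.31, 1.79, 1.85 and 2.30 in rested CD5hi and 4.84, 4.55, 5.06 and 4.97 in Treg. Gins2 was at 1.26, 1.57, 1.21 and 1.09 CPM in fresh CD5lo libraries 1 to 4, 1.4, 1.74, 1.45 and 0.949 in fresh CD5hi, 0.845, 1.11, 1.21 and 0.977 in rested CD5lo, 0.822, 1.09, 1.36 and 0.894 in rested CD5hi and 3.58, 3.07, 3.74 and 3.05 in Treg. For each of these 3 genes every Treg library lay above all 16 naive libraries, and the naive groups overlapped one another. In Treg the log2 fold change of Cdc6 was 2.03 ± 0.30 (adjusted p = 4.59e-06) against fresh CD5lo and 1.80 ± 0.29 (adjusted p = 2.23e-05) against fresh CD5hi. For Cdc45 it was 1.07 ± 0.17 (adjusted p = 1.05e-05) and 1.0 ± 0.17 (adjusted p = 2.74e-05), and for Gins2 1.39 ± 0.19 (adjusted p = 2.37e-06) and 1.28 ± 0.19 (adjusted p = 7.45e-06), in the same order. None of the 3 was called between CD5hi and CD5lo or between rested and fresh cells. Cdc45 overlaps Ufd1 and Gins2 overlaps Gse1 on the opposite strand. Cdc6 in rested CD5hi against CD5lo would be called without rested CD5hi replicate 3 (log2 1.13, adjusted p = 0.0116), and in rested against fresh CD5lo cells with a term for Y-linked reads (log2 -0.94, adjusted p = 0.0451). In the same comparison Cdc45 passed without rested CD5lo replicate 2 (log2 -0.48, adjusted p = 0.032) and with a term for Y-linked reads (log2 -0.59, adjusted p = 0.0205), and Gins2 fell in rested CD5hi cells without fresh CD5hi replicate 4 or rested CD5hi replicate 3 (log2 -0.56 to -0.55, adjusted p = 0.0308 to 0.0374).

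Mcm2 to Mcm5 are the other helicase subunits called in at least 1 comparison. Mcm2 averaged 78.8 ± 3.14 CPM in fresh CD5lo, 79.9 ± 2.16 in fresh CD5hi and 65.0 ± 4.29 in Treg, where it was the 1 licensing gene called lower, by a log2 fold change of -0.28 ± 0.07 (adjusted p = 0.00213) against fresh CD5lo and -0.30 ± 0.07 (adjusted p = 0.00127) against fresh CD5hi. The first of these calls was lost with a term for Y-linked reads (log2 -0.17, adjusted p = 0.069). Mcm3 averaged 44.0 ± 2.03 CPM in fresh CD5lo and 50.2 ± 2.34 in fresh CD5hi, whose libraries did not overlap (log2 0.19 ± 0.05, adjusted p = 0.0237). The call did not hold without fresh CD5lo replicate 2, 3 or 4 or fresh CD5hi replicate 1 or 2 (log2 0.16 to 0.19, adjusted p = 0.0601 to 0.116) and without the filter on low counts (log2 0.19, adjusted p = 0.0505). With resting Mcm3 fell in CD5hi cells by log2 -0.18 ± 0.05 (adjusted p = 0.00809), a call lost with a term for Y-linked reads (log2 -0.15, adjusted p = 0.0573). In Treg it was higher than in fresh CD5lo cells by log2 0.24 ± 0.05 (adjusted p = 0.000637). Mcm4 was lower in rested than in fresh CD5hi cells, at log2 -0.16 ± 0.05 (adjusted p = 0.0105), and its 5 group means ran from 82.0 ± 2.84 to 91.7 ± 3.64 CPM. Mcm5 was higher in Treg (55.3 ± 1.39 CPM) than in fresh CD5lo (37.1 ± 1.48) and fresh CD5hi (41.7 ± 1.83), by log2 0.58 ± 0.11 (adjusted p = 0.000103) and 0.41 ± 0.11 (adjusted p = 0.00306). Rested against fresh CD5lo cells passed for Mcm5 with a term for Y-linked reads (log2 0.26, adjusted p = 0.0362). In the fit with pairs, Mcm5 and Mcm6 passed between fresh CD5hi and CD5lo cells as well (log2 0.17, adjusted p = 0.0325 and 0.12, adjusted p = 0.044), Mcm5 also in a fit of the compared groups alone (log2 0.17, adjusted p = 0.024). Replicate 3 of rested CD5hi was the highest library of its group for 8 of the 10 licensing and fork genes. It is also the only library of that group with Y-linked reads, and the part of this in its values was not tested.

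Deoxynucleotides are made by ribonucleotide reductase, with its constant subunit Rrm1 and its S phase subunit Rrm2, and by thymidylate synthase, Tyms. Rrm2 was at 2.23, 3.45, 3.25 and 2.45 CPM in fresh CD5lo libraries 1 to 4, 4.29, 3.20, 4.58 and 3.11 in fresh CD5hi, 4.04, 3.93, 4.61 and 5.24 in rested CD5lo, 3.39, 3.86, 4.88 and 4.58 in rested CD5hi and 12.5, 11.1, 12.9 and 14.3 in Treg. Rrm1 was at 30.6, 30.9, 33.5 and 29.2 CPM in fresh CD5lo libraries 1 to 4, 31.4, 34.6, 31.3 and 29.2 in fresh CD5hi, 29.2, 32.3, 29.6 and 31.9 in rested CD5lo, 28.1, 27.8, 31.4 and 29.4 in rested CD5hi and 36.4, 39.4, 43.1 and 34.2 in Treg. Tyms was at 10.00, 11.0, 13.5 and 10.5 CPM in fresh CD5lo libraries 1 to 4, 10.7, 12.6, 12.6 and 12.3 in fresh CD5hi, 12.4, 11.1, 8.63 and 11.0 in rested CD5lo, 12.6, 11.6, 8.86 and 11.8 in rested CD5hi and 14.8, 15.4, 18.8 and 18.4 in Treg. Treg lay above all 16 naive libraries for Rrm2 and Tyms, and overlapped fresh CD5hi by 1 library for Rrm1. For Rrm2 in Treg the log2 fold change was 2.16 ± 0.16 (adjusted p = 1.98e-10) against fresh CD5lo and 1.74 ± 0.16 (adjusted p = 5.63e-09) against fresh CD5hi. For Rrm1 it was 0.30 ± 0.07 (adjusted p = 0.000808) and 0.28 ± 0.07 (adjusted p = 0.00199), and for Tyms 0.58 ± 0.12 (adjusted p = 0.000336) and 0.48 ± 0.12 (adjusted p = 0.00219). Rrm2 also rose with resting in CD5lo cells, by 0.65 ± 0.16 (adjusted p = 0.00226), and in CD5hi cells its change was 0.14 ± 0.16 (adjusted p = 0.493). The difference between these 2 changes did not pass its own test (-0.51 ± 0.23, adjusted p = 0.724). In the fit with pairs Rrm2 was higher in fresh CD5hi than in fresh CD5lo cells (log2 0.42, adjusted p = 0.0447). Processed copies of Tyms and Pcna exist in the mouse genome, so reads of either gene may have been split between copies.

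Cyclins E1 and E2 activate Cdk2 at the entry into S phase. Ccne1 was at 9.73, 10.1, 6.67 and 8.75 CPM in fresh CD5lo libraries 1 to 4, 14.1, 12.9, 9.51 and 10.6 in fresh CD5hi, 8.07, 8.28, 6.49 and 6.55 in rested CD5lo, 10.0, 9.17, 7.92 and 8.31 in rested CD5hi and 10.2, 9.46, 10.6 and 11.6 in Treg. Ccne2 was at 4.84, 5.0, 5.26 and 4.74 CPM in fresh CD5lo libraries 1 to 4, 4.85, 4.98, 4.27 and 5.11 in fresh CD5hi, 5.95, 5.60, 5.99 and 5.91 in rested CD5lo, 5.94, 5.37, 6.64 and 6.75 in rested CD5hi and 5.04, 5.93, 5.34 and 5.63 in Treg. Cdk2 was at 49.7, 56.0, 55.4 and 49.1 CPM in fresh CD5lo libraries 1 to 4, 56.4, 61.5, 65.0 and 62.8 in fresh CD5hi, 56.8, 56.7, 56.7 and 61.6 in rested CD5lo, 66.3, 62.2, 61.5 and 76.7 in rested CD5hi and 47.1, 47.2, 53.3 and 52.7 in Treg. Treg did not stand above the naive libraries for any of them. Ccne1 was lower in rested than in fresh CD5hi cells by log2 -0.41 ± 0.14 (adjusted p = 0.0155), with overlapping libraries, a call lost without fresh CD5hi replicate 1 (log2 -0.31, adjusted p = 0.0737). Between fresh CD5hi and CD5lo cells its change was 0.42 ± 0.14 (adjusted p = 0.0503), and it passed in the fit with pairs both when fresh (log2 0.42, adjusted p = 0.00035) and when rested (log2 0.27, adjusted p = 0.018). When fresh it passed also without fresh CD5lo replicate 1 or 2 or fresh CD5hi replicate 3 or 4 (log2 0.46 to 0.51, adjusted p = 0.0162 to 0.0491), by DESeq2 (log2 0.42, adjusted p = 0.0207) and under other scaling, other filters of low counts or a term for Y-linked reads (adjusted p = 0.0425 to 0.0479). Against fresh CD5lo, rested CD5lo cells passed without fresh CD5lo replicate 3 (log2 -0.37, adjusted p = 0.0203). Ccne2 was higher after resting, by log2 0.24 ± 0.10 (adjusted p = 0.0394) in CD5lo and 0.36 ± 0.10 (adjusted p = 0.00353) in CD5hi cells. In CD5lo cells it was not called without fresh CD5lo replicate 1, 2 or 4 or rested CD5lo replicate 1, 3 or 4 (log2 0.22 to 0.24, adjusted p = 0.0691 to 0.0986), without the filter on low counts (log2 0.24, adjusted p = 0.0598), with a term for Y-linked reads (log2 0.28, adjusted p = 0.0592) and in a fit of the compared groups alone (log2 0.24, adjusted p = 0.0568). Cdk2 was higher in fresh CD5hi than fresh CD5lo cells by log2 0.23 ± 0.07 (adjusted p = 0.0435), which was not called without fresh CD5lo replicate 1 or 4 or fresh CD5hi replicate 2, 3 or 4 (log2 0.20 to 0.23, adjusted p = 0.0901 to 0.148) and without the filter on low counts (log2 0.23, adjusted p = 0.0516). When rested its difference was 0.20 ± 0.07 (adjusted p = 0.096) and passed without rested CD5hi replicate 3 (log2 0.23, adjusted p = 0.0497) and with the pairs as a block (log2 0.20, adjusted p = 0.00473). Treg were below fresh CD5hi cells for Cdk2 by log2 -0.29 ± 0.07 (adjusted p = 0.00144). Cdk2 overlaps Pmel and Ccne2 overlaps Ints8 on the opposite strand.

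E2f1 and E2f2 are classed among the E2F activators of S phase genes, and Foxm1 and Mybl2 (B-Myb) drive the mitotic genes. E2f2 was at 41.4, 38.3, 38.8 and 42.6 CPM in fresh CD5lo libraries 1 to 4, 30.6, 30.7, 27.9 and 28.5 in fresh CD5hi, 13.2, 12.9, 12.6 and 9.64 in rested CD5lo, 12.0, 11.7, 9.94 and 8.58 in rested CD5hi and 67.8, 64.1, 61.0 and 67.9 in Treg. Treg were highest, then fresh CD5lo, then fresh CD5hi, then both rested groups, and only the rested groups overlapped each other. For E2f2 edgeR gave a log2 fold change of -0.45 ± 0.09 (adjusted p = 0.0014) in fresh CD5hi against CD5lo, -1.74 ± 0.10 (adjusted p = 2.72e-12) with resting in CD5lo, -1.48 ± 0.10 (adjusted p = 4.7e-11) with resting in CD5hi, 0.69 ± 0.09 (adjusted p = 1.02e-06) in Treg against fresh CD5lo and 1.15 ± 0.09 (adjusted p = 6.35e-10) against fresh CD5hi. It was the 1 gene of the 42 called lower in fresh CD5hi cells. When rested its difference was -0.19 ± 0.10 (adjusted p = 0.315), and log2 -0.19, adjusted p = 0.0411 in the fit with pairs. Foxm1 was at 3.44, 3.06, 3.54 and 2.55 CPM in fresh CD5lo libraries 1 to 4, 3.95, 4.82, 4.70 and 3.90 in fresh CD5hi, 7.07, 6.62, 5.20 and 5.19 in rested CD5lo, 8.91, 7.62, 5.71 and 7.82 in rested CD5hi and 5.98, 6.14, 6.61 and 6.99 in Treg. All rested and Treg libraries lay above all fresh ones, and fresh CD5hi above fresh CD5lo. For Foxm1 the log2 fold change was 0.93 ± 0.15 (adjusted p = 1.58e-05) with resting in CD5lo, 0.79 ± 0.14 (adjusted p = 9.24e-05) in CD5hi, 1.03 ± 0.14 (adjusted p = 2.77e-06) in Treg against fresh CD5lo and 0.57 ± 0.14 (adjusted p = 0.00193) against fresh CD5hi. In fresh CD5hi against CD5lo cells it was 0.46 ± 0.15 (adjusted p = 0.0426), which was not called without fresh CD5lo replicate 2 or 4 or fresh CD5hi replicate 2 or 3 (log2 0.38 to 0.45, adjusted p = 0.089 to 0.146). When rested the difference was 0.32 ± 0.14 (adjusted p = 0.213), and it passed without rested CD5hi replicate 3 (log2 0.43, adjusted p = 0.0438) and with the pairs as a block (log2 0.32, adjusted p = 0.0374). Foxm1 overlaps Gm44596 and Tex52 on the same strand.

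E2f1 and Mybl2 were called in none of the 7 comparisons. The E2f1 means ran from 3.08 ± 0.314 CPM in rested CD5lo to 3.72 ± 0.432 in Treg, and replicate 2 of fresh CD5lo, at 5.09, lay above every Treg library. Treg passed against fresh CD5lo without fresh CD5lo replicate 2 (log2 0.51, adjusted p = 0.0111). Mybl2 means ran from 2.93 ± 1.14 CPM in rested CD5lo to 5.06 ± 1.0 in Treg. Within the rested groups its libraries spread from 1.75 to 4.37 CPM in CD5hi and from 1.95 to 4.35 in CD5lo, with replicate 3 lowest in both. It fell with resting in CD5lo cells without rested CD5lo replicate 1 (log2 -0.67, adjusted p = 0.0246) and with a term for Y-linked reads (log2 -0.84, adjusted p = 0.0154). In Treg it passed in the fit of the compared groups alone against fresh CD5lo (log2 0.38, adjusted p = 0.0446) and fresh CD5hi (log2 0.47, adjusted p = 0.0107).

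**Figure D4:**
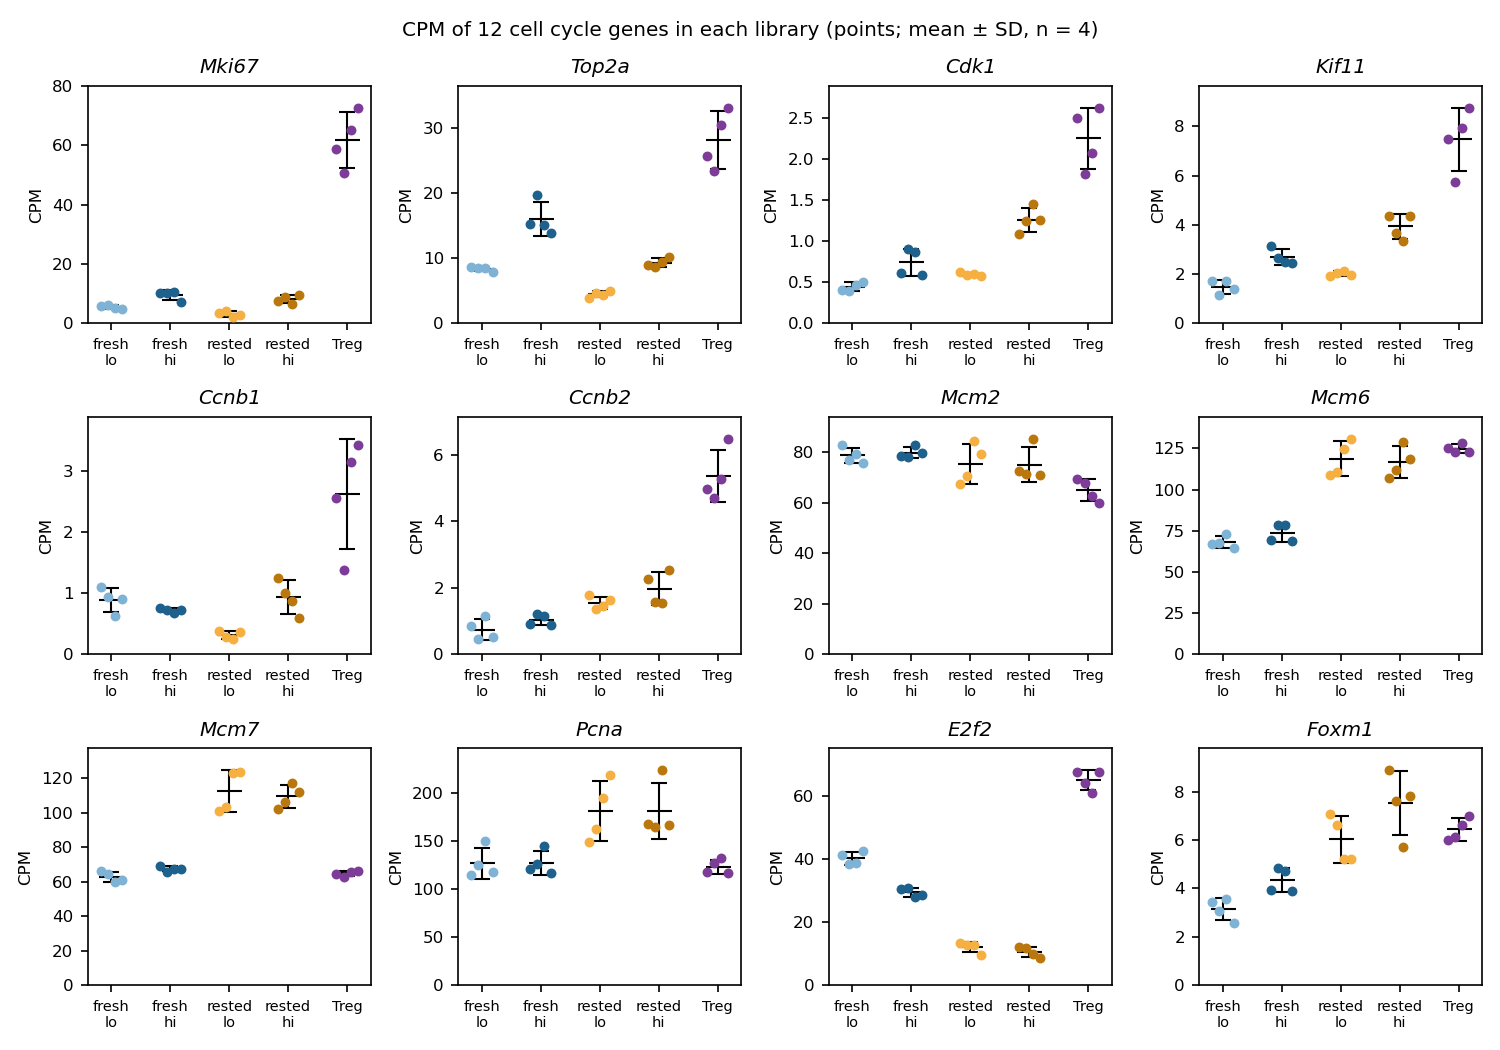
CPM (y axis, from 0) of 12 genes in each library, by group (x axis), with points for libraries and bars for the mean ± SD of 4. Mki67 and Top2a are higher in CD5hi than in CD5lo libraries in both states and highest in Treg, Mcm6 and Mcm7 are higher in all rested than in all fresh libraries, and E2f2 is lowest in the rested groups.

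Mitosis is started by Cdk1 with its cyclins A2, B1 and B2. Cdk1 was at 0.408, 0.391, 0.470 and 0.505 CPM in fresh CD5lo libraries 1 to 4, 0.604, 0.902, 0.869 and 0.583 in fresh CD5hi, 0.618, 0.591, 0.592 and 0.573 in rested CD5lo, 1.09, 1.25, 1.45 and 1.25 in rested CD5hi and 2.50, 1.82, 2.07 and 2.62 in Treg. CD5hi lay above CD5lo without overlap in both states, and Treg above all naive libraries. Cdk1 differed by log2 0.73 ± 0.21 (adjusted p = 0.0216) between fresh CD5hi and CD5lo cells and 1.08 ± 0.20 (adjusted p = 0.000802) between rested ones. When fresh, Cdk1 was not called without fresh CD5lo replicate 1 or 2 or fresh CD5hi replicate 2 or 3 (log2 0.63 to 0.70, adjusted p = 0.0642 to 0.0861) and in a fit of the compared groups alone (log2 0.74, adjusted p = 0.0539). With resting Cdk1 rose in CD5hi cells by 0.77 ± 0.19 (adjusted p = 0.00209), and in CD5lo cells its change was 0.42 ± 0.21 (adjusted p = 0.101), and the difference between the 2 was 0.35 ± 0.29 (adjusted p = 1). In Treg it was 2.34 ± 0.20 (adjusted p = 1.13e-09) against fresh CD5lo and 1.61 ± 0.19 (adjusted p = 2.29e-07) against fresh CD5hi.

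Ccnb1 was at 1.1, 0.936, 0.626 and 0.894 CPM in fresh CD5lo libraries 1 to 4, 0.755, 0.721, 0.674 and 0.716 in fresh CD5hi, 0.371, 0.273, 0.247 and 0.354 in rested CD5lo, 1.25, 1.01, 0.873 and 0.581 in rested CD5hi and 2.55, 1.38, 3.14 and 3.41 in Treg. Rested CD5lo lay below every other library, and Treg above every naive one. Rested CD5lo libraries held 10 to 21 counts of Ccnb1, so their levels rest on few reads. CD5lo and CD5hi overlapped when fresh and were parted when rested. Ccnb1 had a log2 fold change of -1.49 ± 0.30 (adjusted p = 0.000289) with resting in CD5lo cells and 0.36 ± 0.28 (adjusted p = 0.282) in CD5hi cells. Between CD5hi and CD5lo it was -0.31 ± 0.27 (adjusted p = 0.605) when fresh and 1.54 ± 0.31 (adjusted p = 0.00185) when rested, and the difference of these differences, 1.86 ± 0.41 (adjusted p = 0.044), passed for this gene alone among the 42. That last call was lost without any 1 of 13 of the 16 naive libraries (log2 1.70 to 1.94, adjusted p = 0.0619 to 0.109), and held without fresh CD5lo replicate 3 or rested CD5hi replicate 3 or 4. In Treg Ccnb1 was higher by 1.55 ± 0.26 (adjusted p = 2.12e-05) than in fresh CD5lo and by 1.87 ± 0.26 (adjusted p = 3.22e-06) than in fresh CD5hi cells.

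Ccnb2, the partner cyclin, behaved otherwise with resting. Ccnb2 was at 0.851, 0.442, 1.13 and 0.505 CPM in fresh CD5lo libraries 1 to 4, 0.906, 1.19, 1.13 and 0.866 in fresh CD5hi, 1.77, 1.36, 1.46 and 1.62 in rested CD5lo, 2.25, 1.57, 1.53 and 2.53 in rested CD5hi and 4.99, 4.72, 5.29 and 6.50 in Treg. Every rested library lay above every fresh one, and every Treg library above both. The log2 fold change of Ccnb2 was 1.09 ± 0.25 (adjusted p = 0.000895) with resting in CD5lo, 0.94 ± 0.24 (adjusted p = 0.00248) in CD5hi, 2.87 ± 0.24 (adjusted p = 1.1e-09) in Treg against fresh CD5lo and 2.39 ± 0.23 (adjusted p = 1.54e-08) against fresh CD5hi. It was not called between CD5hi and CD5lo cells, at 0.48 ± 0.25 (adjusted p = 0.298) when fresh and 0.34 ± 0.23 (adjusted p = 0.498) when rested. Processed copies of Ccnb1 and Ccnb2 exist, with the limit given above for Pcna. Ccna2, which acts in S phase and early mitosis, averaged 7.13 ± 0.643 CPM in fresh CD5lo and 10.0 ± 1.70 in Treg, by log2 0.49 ± 0.12 (adjusted p = 0.0011) higher, and 7.21 ± 0.705 in fresh CD5hi, from which Treg differed by 0.47 ± 0.12 (adjusted p = 0.0017). It overlaps Exosc9 on the opposite strand.

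Aurkb, Birc5 (survivin) and Cdca8 (borealin) belong to the chromosomal passenger complex, Bub1 and Bub1b are spindle checkpoint kinases or kinase-like proteins, and Aurka and Plk1 are mitotic kinases of the spindle poles. Aurkb was at 0.0709, 0.306, 0.352 and 0.292 CPM in fresh CD5lo libraries 1 to 4, 0.367, 0.361, 0.443 and 0.499 in fresh CD5hi, 0.0824, 0.182, 0.148 and 0.236 in rested CD5lo, 0.451, 0.523, 0.426 and 0.291 in rested CD5hi and 2.35, 1.86, 2.60 and 3.33 in Treg. Treg lay above all naive libraries, and CD5hi above CD5lo in both states without overlap. Rested CD5lo libraries held 4 to 14 counts of Aurkb, so these levels rest on few reads. On the log2 scale Aurkb differed by 1.35 ± 0.39 (adjusted p = 0.0334) between rested CD5hi and CD5lo cells, 0.72 ± 0.35 (adjusted p = 0.25) between fresh ones, 3.31 ± 0.32 (adjusted p = 1.37e-08) in Treg against fresh CD5lo and 2.58 ± 0.31 (adjusted p = 2.99e-07) against fresh CD5hi. The rested call was lost without rested CD5lo replicate 1, 2 or 3 or rested CD5hi replicate 1 or 2 (log2 1.12 to 1.39, adjusted p = 0.0601 to 0.111) and in a fit of the compared groups alone (log2 1.36, adjusted p = 0.0779). Rested against fresh CD5lo cells passed without fresh CD5lo replicate 1 (log2 -0.93, adjusted p = 0.0303). Bub1 was at 0.106, 0.170, 0 and 0.117 CPM in fresh CD5lo libraries 1 to 4, 0.324, 0.383, 0.390 and 0.0666 in fresh CD5hi, 0.0412, 0.0455, 0 and 0.135 in rested CD5lo, 0.133, 0.241, 0.255 and 0.313 in rested CD5hi and 1.38, 1.21, 1.33 and 1.43 in Treg. Naive libraries held 0 to 22 counts of Bub1 and Treg 57 to 81, with 0 counts in replicate 3 of fresh CD5lo and of rested CD5lo. Treg lay above all naive libraries, by log2 3.70 ± 0.52 (adjusted p = 2.4e-06) against fresh CD5lo and 2.22 ± 0.45 (adjusted p = 0.000268) against fresh CD5hi. Between CD5hi and CD5lo cells the estimate was 1.49 ± 0.58 (adjusted p = 0.117) when fresh and 1.92 ± 0.67 (adjusted p = 0.0892) when rested. It passed when fresh without fresh CD5hi replicate 4 (log2 1.84, adjusted p = 0.0291) and when rested without rested CD5lo replicate 4 (log2 2.89, adjusted p = 0.0366) and by DESeq2 (log2 1.99, adjusted p = 0.0284).

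Cdca8 was at 1.68, 0.970, 1.04 and 1.13 CPM in fresh CD5lo libraries 1 to 4, 2.09, 1.37, 1.83 and 1.80 in fresh CD5hi, 0.803, 1.21, 1.90 and 1.53 in rested CD5lo, 1.17, 0.865, 2.09 and 1.36 in rested CD5hi and 4.15, 3.94, 4.22 and 4.33 in Treg. Treg were above all naive libraries, by log2 1.78 ± 0.25 (adjusted p = 2.59e-06) against fresh CD5lo and 1.23 ± 0.24 (adjusted p = 0.000196) against fresh CD5hi, and the naive groups overlapped. In the fit with pairs Cdca8 was higher in fresh CD5hi than in fresh CD5lo cells (log2 0.57, adjusted p = 0.0338), and it fell with resting in CD5hi cells without rested CD5hi replicate 3 (log2 -0.66, adjusted p = 0.0367). It overlaps 9930104L06Rik on the opposite strand. Bub1b averaged 3.56 ± 0.337 CPM in fresh CD5lo, 4.16 ± 0.25 in fresh CD5hi, 1.78 ± 0.172 in rested CD5lo, 2.63 ± 0.672 in rested CD5hi and 8.17 ± 1.18 in Treg. Its log2 fold change was -1.0 ± 0.16 (adjusted p = 1.9e-05) with resting in CD5lo and -0.66 ± 0.15 (adjusted p = 0.0012) in CD5hi cells, without overlap in either. Rested CD5hi lay above rested CD5lo by 0.57 ± 0.16 (adjusted p = 0.0309), with overlapping libraries, a call lost without rested CD5lo replicate 1, 3 or 4 or rested CD5hi replicate 1 or 2 (log2 0.41 to 0.56, adjusted p = 0.0665 to 0.161) and in a fit of the compared groups alone (log2 0.57, adjusted p = 0.209). Treg were higher by 1.19 ± 0.15 (adjusted p = 4.84e-07) and 0.97 ± 0.15 (adjusted p = 8.24e-06) than fresh CD5lo and CD5hi cells. Birc5 was higher in Treg (3.44 ± 0.557 CPM) than in fresh CD5lo (1.37 ± 0.229) by log2 1.33 ± 0.21 (adjusted p = 1.33e-05), and than in fresh CD5hi (1.98 ± 0.169) by 0.79 ± 0.21 (adjusted p = 0.00248). Between CD5hi and CD5lo cells it passed in the fit with pairs, at log2 0.54, adjusted p = 0.0261 when fresh and 0.53, adjusted p = 0.0394 when rested, and when rested also without rested CD5hi replicate 3 (log2 0.69, adjusted p = 0.0363). When fresh it passed also in a fit of the compared groups alone (log2 0.54, adjusted p = 0.0375).

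For Plk1 and Aurka the Treg values lay close to the naive ones. Plk1 was higher in Treg (3.75 ± 0.568 CPM) than in fresh CD5lo cells (2.41 ± 0.601) by log2 0.63 ± 0.23 (adjusted p = 0.0225), a call lost without fresh CD5lo replicate 3 or Treg replicate 4 (log2 0.49 to 0.55, adjusted p = 0.0623 to 0.0723) and with a term for Y-linked reads (log2 0.29, adjusted p = 0.354). Against fresh CD5hi cells (2.14 ± 0.260 CPM) the change was 0.81 ± 0.23 (adjusted p = 0.00569), lost with a term for Y-linked reads (log2 0.46, adjusted p = 0.14). Aurka is the 1 mitosis gene not called in Treg, with 2.55 ± 0.541 CPM there and 2.02 ± 0.363 to 2.59 ± 0.293 in the fresh groups, and changes of 0.33 ± 0.20 (adjusted p = 0.165) and -0.02 ± 0.20 (adjusted p = 0.933).

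Cdc20 activates the anaphase ubiquitin ligase, and Ube2c is its ubiquitin-conjugating enzyme. Ube2c was at 0.886, 0.578, 0.548 and 0.525 CPM in fresh CD5lo libraries 1 to 4, 0.734, 0.473, 0.833 and 0.616 in fresh CD5hi, 0.577, 0.591, 0.173 and 0.539 in rested CD5lo, 1.33, 1.27, 0.660 and 0.715 in rested CD5hi and 2.38, 1.88, 2.15 and 2.96 in Treg. Cdc20 was at 2.09, 3.64, 3.11 and 3.52 CPM in fresh CD5lo libraries 1 to 4, 2.91, 3.27, 2.93 and 3.65 in fresh CD5hi, 2.82, 3.16, 3.75 and 3.69 in rested CD5lo, 4.64, 3.90, 4.77 and 3.93 in rested CD5hi and 6.44, 5.65, 4.80 and 6.61 in Treg. Treg were above all naive libraries for both genes, by a narrow margin for Cdc20, and rested CD5hi lay above rested CD5lo without overlap for both. The log2 fold change of Ube2c was 1.05 ± 0.32 (adjusted p = 0.0457) between rested CD5hi and CD5lo cells, 1.88 ± 0.29 (adjusted p = 1.13e-05) in Treg against fresh CD5lo and 1.81 ± 0.29 (adjusted p = 2.05e-05) against fresh CD5hi. The rested call was lost without rested CD5lo replicate 1, 2, 3 or 4 or rested CD5hi replicate 1 or 2 (log2 0.80 to 1.16, adjusted p = 0.0507 to 0.157) and in a fit of the compared groups alone (log2 1.06, adjusted p = 0.216). Rested against fresh CD5lo cells passed with a term for Y-linked reads (log2 -0.95, adjusted p = 0.0349). Cdc20 rose with resting in CD5hi cells by 0.43 ± 0.16 (adjusted p = 0.0281), a call lost without fresh CD5hi replicate 1 or 3 or rested CD5hi replicate 1 or 3 (log2 0.37 to 0.40, adjusted p = 0.0651 to 0.0835) and with a term for Y-linked reads (log2 0.44, adjusted p = 0.0623). In Treg it was higher by 0.93 ± 0.16 (adjusted p = 3.29e-05) and 0.88 ± 0.16 (adjusted p = 6.83e-05) than in fresh CD5lo and CD5hi cells. Between rested CD5hi and CD5lo cells its change was 0.36 ± 0.16 (adjusted p = 0.216). Ube2c overlaps Tnnc2 and Cdc20 overlaps Elovl1 on the opposite strand.

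Kif11 is the motor that pushes spindle poles apart, Tpx2 nucleates spindle microtubules, and Cenpe and Cenpf act at the kinetochore. Kif11 was at 1.70, 1.12, 1.72 and 1.38 CPM in fresh CD5lo libraries 1 to 4, 3.15, 2.66, 2.50 and 2.45 in fresh CD5hi, 1.90, 2.02, 2.12 and 1.97 in rested CD5lo, 4.35, 3.66, 3.34 and 4.36 in rested CD5hi and 7.47, 5.74, 7.94 and 8.76 in Treg. CD5hi lay above CD5lo in both states, rested above fresh in both CD5 groups, and Treg above all, with no overlap. Its log2 fold change was 0.86 ± 0.16 (adjusted p = 0.000631) between fresh CD5hi and CD5lo cells and 0.97 ± 0.16 (adjusted p = 0.000208) between rested ones. With resting it was 0.43 ± 0.16 (adjusted p = 0.0294) in CD5lo and 0.55 ± 0.15 (adjusted p = 0.00505) in CD5hi cells. In CD5lo cells it was not called without fresh CD5lo replicate 2 or 4 or rested CD5lo replicate 3 or 4 (log2 0.32 to 0.44, adjusted p = 0.0501 to 0.112), with a term for Y-linked reads (log2 0.42, adjusted p = 0.0796) and in a fit of the compared groups alone (log2 0.43, adjusted p = 0.0616). In Treg it was 2.34 ± 0.16 (adjusted p = 3.03e-11) against fresh CD5lo and 1.48 ± 0.15 (adjusted p = 3.1e-08) against fresh CD5hi. Tpx2 was at 0.798, 0.697, 0.626 and 0.70 CPM in fresh CD5lo libraries 1 to 4, 1.23, 1.15, 1.24 and 0.832 in fresh CD5hi, 0.659, 0.842, 0.814 and 0.674 in rested CD5lo, 1.99, 0.985, 1.55 and 2.15 in rested CD5hi and 3.52, 3.09, 3.72 and 3.88 in Treg. Treg were above all naive libraries, and CD5hi above CD5lo in both states. Between CD5hi and CD5lo cells Tpx2 differed by log2 1.16 ± 0.22 (adjusted p = 0.00103) when rested and 0.65 ± 0.22 (adjusted p = 0.0579) when fresh, which passed without fresh CD5hi replicate 4 (log2 0.77, adjusted p = 0.0315), by DESeq2 (log2 0.66, adjusted p = 0.0456) and in a fit of the compared groups alone (log2 0.65, adjusted p = 0.0403). With resting it rose in CD5hi cells by 0.58 ± 0.21 (adjusted p = 0.0234), a call lost without fresh CD5hi replicate 4 or rested CD5hi replicate 1 or 4 (log2 0.43 to 0.49, adjusted p = 0.0726 to 0.105), with a term for Y-linked reads (log2 0.61, adjusted p = 0.0519) and in a fit of the compared groups alone (log2 0.57, adjusted p = 0.0906). In Treg it was 2.33 ± 0.21 (adjusted p = 3.52e-09) and 1.68 ± 0.20 (adjusted p = 3.67e-07) against fresh CD5lo and CD5hi.

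Cenpe was at 1.45, 1.5, 1.82 and 1.59 CPM in fresh CD5lo libraries 1 to 4, 2.03, 1.69, 1.63 and 1.70 in fresh CD5hi, 0.968, 1.18, 1.53 and 1.23 in rested CD5lo, 1.27, 1.53, 1.92 and 1.74 in rested CD5hi and 7.42, 5.54, 7.10 and 9.36 in Treg. No difference between the naive groups was called, though rested CD5lo lay below fresh CD5hi, 2 groups not compared here. Treg stood above all of them by log2 2.21 ± 0.17 (adjusted p = 2.68e-10) against fresh CD5lo and 2.06 ± 0.17 (adjusted p = 9.51e-10) against fresh CD5hi. Rested against fresh CD5lo cells passed without rested CD5lo replicate 3 (log2 -0.49, adjusted p = 0.0402). For Cenpf rested CD5hi averaged 1.83 ± 0.184 CPM and rested CD5lo 0.841 ± 0.155 (log2 1.12 ± 0.20, adjusted p = 0.000535, no overlap), and Treg averaged 4.31 ± 0.887. In rested against fresh CD5hi cells it passed without fresh CD5hi replicate 3 (log2 0.53, adjusted p = 0.0324). Kif2c, which takes microtubules apart at kinetochores, held 0 to 8 counts per library in rested CD5lo. Its mean there was 0.0976 ± 0.0718 CPM against 0.405 ± 0.0953 in rested CD5hi (log2 1.97 ± 0.42, adjusted p = 0.0038) and 0.272 ± 0.0751 in fresh CD5lo (log2 -1.38 ± 0.43, adjusted p = 0.0106), without overlap in either. The first of these was lost in a fit of the compared groups alone (log2 1.98, adjusted p = 0.077). Nusap1 was higher in Treg, at 2.83 ± 0.834 CPM against 0.827 ± 0.317 in fresh CD5lo, and 1 of 4 Treg libraries fell within the rested CD5hi range. Between rested CD5hi and CD5lo cells its change was 0.87 ± 0.28 (adjusted p = 0.0591), without overlap, and it passed in the fit with pairs (log2 0.86, adjusted p = 0.022), by DESeq2 (log2 0.88, adjusted p = 0.0284) and without rested CD5hi replicate 3 (log2 1.01, adjusted p = 0.0248). Kif20a, the motor of cytokinesis, differed from fresh CD5lo by log2 0.66 ± 0.08 (adjusted p = 2.38e-07) in Treg, and passed between CD5hi and CD5lo cells in the fit with pairs when fresh (log2 0.20, adjusted p = 0.0327) and rested (log2 0.22, adjusted p = 0.0232). When rested it also passed without rested CD5hi replicate 3 (log2 0.29, adjusted p = 0.0111), and when fresh in a fit of the compared groups alone (log2 0.20, adjusted p = 0.0426). Kif20a overlaps Cdc23 and Nusap1 overlaps Oip5 on the opposite strand.

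Mki67 coats mitotic chromosomes and is the usual marker of cycling cells, and Top2a untangles DNA. Mki67 was at 5.64, 6.24, 4.95 and 4.76 CPM in fresh CD5lo libraries 1 to 4, 10.1, 10.3, 10.4 and 7.12 in fresh CD5hi, 3.23, 4.21, 1.87 and 2.54 in rested CD5lo, 7.58, 8.71, 6.54 and 9.41 in rested CD5hi and 58.7, 50.8, 65.2 and 72.7 in Treg. CD5hi lay above CD5lo without overlap in both states, rested CD5lo lay below fresh CD5lo, and every Treg library was far above every naive one. Mki67 differed by log2 0.81 ± 0.17 (adjusted p = 0.00265) between fresh CD5hi and CD5lo cells and 1.44 ± 0.19 (adjusted p = 1.31e-05) between rested ones. With resting it was -0.87 ± 0.19 (adjusted p = 0.000572) in CD5lo and -0.23 ± 0.17 (adjusted p = 0.274) in CD5hi cells, and the difference between these was 0.64 ± 0.25 (adjusted p = 0.593), which did not pass. In Treg it was 3.52 ± 0.18 (adjusted p = 2.25e-13) against fresh CD5lo and 2.71 ± 0.17 (adjusted p = 1.18e-11) against fresh CD5hi. Top2a was at 8.53, 8.52, 8.39 and 7.89 CPM in fresh CD5lo libraries 1 to 4, 15.3, 19.7, 15.1 and 13.9 in fresh CD5hi, 3.89, 4.69, 4.37 and 4.97 in rested CD5lo, 8.91, 8.65, 9.41 and 10.2 in rested CD5hi and 25.6, 23.4, 30.4 and 33.1 in Treg. The order of the groups was rested CD5lo, fresh CD5lo, rested CD5hi, fresh CD5hi and Treg, and neighbours in this order did not overlap. On the log2 scale Top2a differed by 0.94 ± 0.11 (adjusted p = 2.8e-06) between fresh CD5hi and CD5lo cells, 1.05 ± 0.12 (adjusted p = 2.41e-06) between rested ones, -0.89 ± 0.12 (adjusted p = 2.14e-06) and -0.78 ± 0.11 (adjusted p = 6.55e-06) with resting in CD5lo and CD5hi cells, and 1.75 ± 0.11 (adjusted p = 1.37e-11) and 0.82 ± 0.11 (adjusted p = 1.8e-06) in Treg against fresh CD5lo and CD5hi.

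Set side by side, the median log2 fold change of the 22 mitosis genes between CD5hi and CD5lo cells was 0.50 when fresh and 0.92 when rested, and that of the 16 S phase genes 0.10 and 0.04. Over all genes tested it was -0.01 when fresh and 0.00 when rested. None of the 16 S phase genes was called by edgeR when rested, where 2 had an unadjusted p under 0.05 DESeq2 called 0 and the fit with pairs called 2 (Ccne1 and Cdk2, values above). Cdk1, Kif11, Mki67 and Top2a were called higher in CD5hi cells in both states, which is 4 of the 7 genes higher when fresh and 4 of the 11 higher when rested. Of all genes called higher when fresh 47.8% were also called higher when rested, and of those called higher when rested 69.1% when fresh. With same-numbered CD5lo and CD5hi libraries as pairs, 15 of the 42 were called when fresh (14 higher, 1 lower) and 18 when rested (17 higher, 1 lower). The same fit raised the calls over all genes from 1524 to 2806 when fresh and from 1092 to 2372 when rested. Without rested CD5hi replicate 3 the rested count was 17, and in a fit of the 2 rested groups alone it was 7. Without fresh CD5hi replicate 2 the fresh count was 4. Calls of 4 of 8 genes when fresh and 7 of 11 when rested held under every alternative that gave a value.

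With resting, the same 7 genes were called higher in both CD5 groups (Mcm6, Mcm7, Pcna, Ccne2, Foxm1, Ccnb2 and Kif11), which is 7 of 8 in CD5lo and 7 of 10 in CD5hi cells, and the same 3 lower (E2f2, Bub1b and Top2a), which is 3 of 6 in each. Of all genes called higher 83.9% in CD5lo and 86.3% in CD5hi cells were called in both, and of those called lower 81.5% and 85.0%. Same-numbered CD5lo and CD5hi libraries deviate together, so these 2 comparisons are not independent. Genes called among CD5lo cells but not CD5hi cells were Rrm2 (higher) and Ccnb1, Kif2c and Mki67 (lower), and the other way round Cdk1, Cdc20 and Tpx2 (higher) and Mcm3, Mcm4 and Ccne1 (lower). Of these 10, the difference between the CD5 groups passed its own test for Ccnb1 alone. The median of the 22 mitosis genes was -0.18 in CD5lo and 0.09 in CD5hi cells, and that of all genes -0.01 and 0.00. With a term for Y-linked reads 17 genes were called in CD5lo (7 higher, 10 lower) and 13 in CD5hi cells (8 higher, 5 lower).

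In Treg, 21 of 22 mitosis genes were higher than in fresh CD5lo cells and 21 of 22 higher than in fresh CD5hi cells, with medians of 1.83 and 1.54 on the log2 scale. The 16 S phase genes had 9 higher and 1 lower against CD5lo, and 8 higher and 2 lower against CD5hi, with medians of 0.27 and 0.23. All 4 Treg libraries lay above all 16 naive libraries for 27 of the 42 genes, against 17.4% of all genes. These were 20 of the 22 mitosis genes, all but Aurka and Nusap1, and 6 of the 16 S phase genes (Cdc6, Cdc45, Gins2, Mcm5, Rrm2 and Tyms). The transcription factor E2f2 completes the 27. Within Treg, replicate 4 was the highest library for 18 of the 22 mitosis genes and replicate 2 the lowest for 16. The mitosis genes thus rank the Treg libraries in much the same way, and their number is not a number of replicates.

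Other genes of the cycle were followed through 4 lists. Of 48 further S phase genes, fresh CD5hi cells had 8 higher and 2 lower than CD5lo cells (16.7% and 4.17%), and rested ones 5 and 2 (10.4% and 4.17%), beside the shares of all genes given above. With resting 13 were higher and 9 lower in CD5lo (27.1% and 18.8%, against 26.9% and 27.3% of all genes), and 11 and 9 in CD5hi cells (22.9% and 18.8%, against 26.2% each). These shares are near those of all genes or below them. In Treg 26 were higher and 9 lower than in fresh CD5lo (54.2% and 18.8%, against 29.2% and 29.4%). Against fresh CD5hi cells 27 were higher and 7 lower (56.2% and 14.6%, against 27.5% and 26.6%). Chaf1a, a chromatin assembly factor of the fork, was among those higher in CD5hi cells, by log2 0.92 ± 0.17 (adjusted p = 0.000452) when fresh and 0.83 ± 0.18 (adjusted p = 0.00377) when rested. Pole2, a subunit of DNA polymerase epsilon, was at 12.4 ± 1.15 CPM in fresh CD5lo, 21.5 ± 0.659 in fresh CD5hi and 5.12 ± 0.403 in Treg, so it was higher in CD5hi cells (log2 0.79 ± 0.07, adjusted p = 8.04e-08) and lower in Treg than in either fresh group. Thymidine kinase, Tk1, was at 1.61 ± 0.268 CPM in fresh CD5lo and 14.7 ± 2.07 in Treg (log2 3.20 ± 0.23, adjusted p = 6.1e-11). Dtl and Clspn, a ubiquitin ligase adaptor and a checkpoint adaptor of the fork, averaged 4.65 ± 0.506 and 3.11 ± 0.731 CPM in Treg and 0.183 ± 0.0140 and 0.302 ± 0.0298 in fresh CD5lo.

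Of 65 further genes of G2 and mitosis, fresh CD5hi cells had 11 higher and 1 lower than CD5lo cells (16.9% and 1.54%, against 6.86% and 4.59% of all genes), and rested ones 11 and 2 (16.9% and 3.08%, against 4.74% and 3.46%). With resting 18 were higher and 10 lower in CD5lo, and 18 and 8 in CD5hi cells. The share higher, 27.7% in each, is near that of all genes (26.9% and 26.2%). The share lower was 15.4% and 12.3%, against 27.3% and 26.2% of all genes. In Treg 50 were higher and 3 lower than in fresh CD5lo (76.9% and 4.62%, against 29.2% and 29.4% of all genes). Against fresh CD5hi cells 44 were higher and 3 lower (67.7% and 4.62%, against 27.5% and 26.6%). Cdc25b, the phosphatase that activates Cdk1, was at 31.2 ± 3.84 CPM in fresh CD5lo and 185 ± 24.0 in rested CD5lo (log2 2.56 ± 0.10, adjusted p = 1.03e-14), and its rise in CD5hi cells was 2.05 ± 0.10 (adjusted p = 2.74e-13). Melk, a kinase of dividing cells, was at 4.39 ± 0.851 CPM in Treg and 0.298 ± 0.0791 in fresh CD5lo. Kif23, a motor of cytokinesis, went the other way. It was at 19.9 ± 2.59 CPM in fresh CD5lo, 5.43 ± 1.27 in fresh CD5hi and 4.94 ± 1.06 in Treg, and was lower in CD5hi than CD5lo cells both when fresh (log2 -1.87 ± 0.17, adjusted p = 2.93e-08) and when rested (-1.33 ± 0.17, adjusted p = 9.46e-06).

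The next list holds RB, E2F and DREAM regulators together with Myc and Mycn, and 17 of its 18 genes were tested. Among these 17, 2 stood higher and 1 stood lower in CD5hi cells when fresh. That is 11.8% and 5.88%, against 6.86% and 4.59% of all genes. When rested 1 was higher (5.88%, against 4.74% of all genes). With resting 7 were higher and 3 lower in CD5lo, and 7 and 4 in CD5hi cells, and in Treg 9 were higher and 4 lower than in either fresh group. With resting in CD5lo cells that is 41.2% and 17.6%, against 26.9% and 27.3% of all genes. In CD5hi cells it is 41.2% and 23.5%, against 26.2% each. In Treg it is 52.9% and 23.5% in both comparisons. All genes had 29.2% and 29.4% against fresh CD5lo, and 27.5% and 26.6% against fresh CD5hi. These shares rest on 17 genes. E2f3, classed with E2f2 among the E2F activators, was at 5.37 ± 0.708 CPM in fresh CD5lo, 8.85 ± 1.06 in fresh CD5hi and 16.9 ± 1.86 in Treg. In fresh CD5hi cells E2f3 was thus higher (log2 0.72 ± 0.15, adjusted p = 0.00221) where E2f2 was lower. Myc was at 87.6 ± 11.4 CPM in fresh and 166 ± 6.85 in rested CD5lo cells (log2 0.92 ± 0.08, adjusted p = 1.73e-09). Of 13 brakes on entry into the cycle, 11 were higher and 2 lower with resting in CD5lo and 10 and 2 in CD5hi cells. That is 84.6% and 76.9% higher, against 26.9% and 26.2% of all genes. The share lower was 15.4% in each, against 27.3% and 26.2%. Between CD5hi and CD5lo cells 1 was lower when fresh, and 1 was higher and 1 lower when rested. Each is 7.69% of the brakes. Over all genes 4.59% were lower when fresh, and 4.74% higher and 3.46% lower when rested. Cdkn1b (p27) went from 172 ± 4.69 to 385 ± 59.8 CPM in CD5lo cells (log2 1.16 ± 0.10, adjusted p = 6.36e-09), and Klf2, a quiescence factor, from 286 ± 26.0 to 678 ± 30.3 (log2 1.25 ± 0.08, adjusted p = 1.19e-11). Foxo1, which drives quiescence genes, fell from 537 ± 47.0 to 235 ± 19.1 CPM (log2 -1.19 ± 0.07, adjusted p = 2.17e-11). Cdkn1a (p21) averaged 0.0262 ± 0.0338 CPM in fresh CD5lo, 0.0796 ± 0.0588 in fresh CD5hi, 0.329 ± 0.0876 in rested CD5lo, 1.64 ± 0.588 in rested CD5hi and 1.36 ± 0.318 in Treg. In Treg 5 brakes were higher and 6 lower than in fresh CD5lo (38.5% and 46.2%, against 29.2% and 29.4% of all genes). Against fresh CD5hi cells 4 were higher and 5 lower (30.8% and 38.5%, against 27.5% and 26.6%). Cdkn2c (p18) was at 5.93 ± 0.479 CPM in Treg against 2.10 ± 0.522 in fresh CD5lo (log2 1.5 ± 0.16, adjusted p = 6.16e-08).

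Markers of other cells moved with several of these groups, and their part in the results was not tested. The 6 Treg markers (Foxp3, Il2ra, Ctla4, Ikzf2, Tnfrsf18 and Folr4) summed to 91.3 to 98.7 CPM per library in fresh CD5lo, 303 to 308 in fresh CD5hi, 288 to 318 in rested CD5lo, 358 to 392 in rested CD5hi and 3621 to 3884 in Treg, and none was at 0 in any library. They were thus higher in CD5hi than in CD5lo cells, as the mitosis genes were. Of the 6, 4 were called higher when fresh (not Foxp3 or Il2ra) and 4 when rested (not Ctla4 or Il2ra), while Il2ra was lower in both. Of all genes 6.86% were higher and 4.59% lower when fresh, and 4.74% and 3.46% when rested. Foxp3 itself was at 22.4 ± 1.02 CPM in fresh CD5lo and 24.1 ± 1.39 in fresh CD5hi, and Ikzf2 at 1.75 ± 0.424 and 9.63 ± 0.648, with 894 ± 40.8 in Treg. The 7 markers of activated T cells were Cd69, Il2ra, Tnfrsf4, Icos, Irf4, Tnfrsf9 and Cd44. They summed to 143 to 149 CPM in fresh CD5lo, 168 to 179.7 in fresh CD5hi and 1683 to 1833 in Treg. When rested the sums were 216 to 250 CPM in CD5lo and 238 to 283 in CD5hi cells. Of the 7, 3 were called higher and 2 lower in CD5hi than in CD5lo cells in each state. Il2ra is also among the Treg markers, and the sort held surface CD44 low in the naive groups. The 8 erythroid markers, whose precursors divide, summed to 52.1 to 114 CPM in fresh CD5lo, 33.0 to 77.3 in fresh CD5hi, 0.659 to 12.5 in rested CD5lo, 0.663 to 19.0 in rested CD5hi and 1.57 to 32.5 in Treg. The 6 plasma cell markers summed to 47.9 to 50.9 CPM in fresh CD5lo and 116 to 127 in Treg, nearly all from Xbp1 and Prdm1, with Tnfrsf17 at 0 in most libraries. In fresh CD5hi they summed to 46.2 to 52.5 CPM, in rested CD5lo to 75.4 to 81.2 and in rested CD5hi to 77.0 to 84.5. The 8 markers of NK and CD8 T cells summed to 31.4 to 36.7 CPM in fresh CD5lo, 8.78 to 9.45 in fresh CD5hi and 36.6 to 45.1 in Treg. When rested they summed to 20.6 to 22.7 CPM in CD5lo and 6.53 to 8.64 in CD5hi cells. The 6 of stromal and endothelial cells summed to 214 to 244 CPM in fresh CD5lo, 234 to 274 in fresh CD5hi and 168 to 186 in Treg. Their sums were 332 to 350 CPM in rested CD5lo and 319 to 349 in rested CD5hi. Of these 6, 5 were at 0 in at least 1 library, and Pdpn in all libraries. The 11 myeloid markers summed to 14.9 to 20.5 CPM in fresh CD5lo, 14.9 to 17.8 in fresh CD5hi and 9.77 to 12.6 in Treg. When rested they summed to 6.02 to 11.0 CPM in CD5lo and 5.49 to 11.0 in CD5hi cells. The 6 thymocyte markers, whose precursors also divide, summed to 68.5 to 76.2 CPM in fresh CD5lo, 42.5 to 45.1 in fresh CD5hi, 73.2 to 83.2 in rested CD5lo, 50.5 to 57.4 in rested CD5hi and 45.6 to 56.5 in Treg. Rag2 was at 0 in all 20 libraries and Rag1 at or near 0. Of the 4 tested, Dntt alone was called between CD5hi and CD5lo cells, at 28.7 ± 2.86 CPM in fresh CD5lo and 1.98 ± 0.354 in fresh CD5hi.

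The B cell markers moved with Treg and with resting. The 7 reported here (Cd79a, Cd79b, Ms4a1, Pax5, Ebf1, Cd22 and Blk) summed to 3.80 to 5.53 CPM per library in fresh CD5lo, 4.06 to 5.98 in fresh CD5hi, 5.38 to 9.87 in rested CD5lo, 5.79 to 10.1 in rested CD5hi and 31.2 to 33.7 in Treg. Of the 6 that were tested, 5 were called higher in Treg than in either fresh group, 4 higher with resting in CD5lo and 5 higher in CD5hi cells. Of all genes 29.2% and 27.5% were higher in Treg than in fresh CD5lo and fresh CD5hi cells. With resting 26.9% and 26.2% of all genes were higher in CD5lo and CD5hi cells. Cd79a was called in none of these comparisons. Between CD5hi and CD5lo cells edgeR called 0 of the 6 in either state, and only Blk, lower in fresh CD5hi cells, had an unadjusted p under 0.05. Cd79b averaged 0.738 ± 0.161 CPM in fresh CD5lo, 1.69 ± 0.571 in rested CD5lo and 17.2 ± 0.987 in Treg. Cd22 averaged 0.611 ± 0.184, 1.02 ± 0.282 and 8.47 ± 0.719 in the same order. The part of these markers in the Treg and resting results was not tested.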

How the data were processed

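Poly(A) RNA was sequenced from 20 libraries (TruSeq mRNA v2, 50-cycle paired-end reads, per the labels). The authors deposited whole-number read counts per gene symbol, made with TopHat2 2.0.11, featureCounts 1.4.5 of Subread and edgeR on build mm9, per the submitters' processing notes. The annotation used for counting, and whether strand was used, is not given in the sources used here. The kit named in the labels does not mark strand. Library totals ran from 38211406 to 64477566 counts, so 10 counts are 0.166 to 0.265 CPM. Of counts from 1 to 10, 62.3 to 66.2% were even; whether both reads of a pair were counted was not tested. A deposited table of normalized values was not used.

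All 20 libraries were fitted together in edgeR 4.0.16 (R 4.3.3, filterByExpr, TMM scaling, glmQLFit and glmQLFTest, 5 groups, 15 residual degrees of freedom), with Benjamini-Hochberg adjustment over 13309 genes and a threshold of 0.05. The script was tested on simulated counts. The 7 contrasts were CD5hi against CD5lo fresh and rested, rested against fresh in each, Treg against each fresh group, and the interaction. Values ± SE are log2 fold changes from that fit, and CPM values ± SD use TMM-scaled library sizes. Alternatives were DESeq2 1.42.0, relative log expression factors, other filters, a term for Y-linked reads, the compared groups alone, the replicate number as a block, and leaving out each library. Same-numbered CD5lo and CD5hi libraries deviated together (correlation of deviations 0.160 to 0.299 fresh, 0.189 to 0.517 rested), so the numbers pair them, as judged from the data and not from a label. Libraries of different number reached 0.0690 fresh and 0.288 rested, and rested CD5lo replicate 4 correlated more with rested CD5hi replicate 3 (0.218) than with replicate 4 (0.189).

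The members and lists were chosen with earlier results of these data known. Library values are given for Mki67, Top2a, Cdk1 and up to 3 genes per role with the largest called change and at least 1 CPM in the higher group. Of each other list, the genes named are among the 4 with the largest called change per comparison. One marker gene is not reported here.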

Additional observations from a re-analysis of the deposited data

Results flagged for a closer look

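In 14 of 210 groups of 4 libraries (42 genes in 5 groups), 1 library stood apart from the other 3 by Dixon's criterion, where chance alone gives about 1 in 20. Rested CD5hi replicate 3 was apart and highest for Mcm2 (85.5 CPM, next 72.6), Mcm5 (50.5 CPM, next 37.7) and Pcna (223.9 CPM, next 167). Fresh CD5hi replicate 1 was lowest for Tyms at 10.7 CPM and highest for Bub1b at 4.53 CPM and Cenpe at 2.03 CPM. Fresh CD5hi replicate 4 was lowest for Mki67 at 7.12 CPM, where the next library had 10.1 CPM. Rested CD5lo replicate 4 was highest for Cdk2 at 61.6 CPM and lowest for E2f2 at 9.64 CPM. Ube2c was apart in 2 groups, at 0.886 CPM in fresh CD5lo replicate 1 (highest) and 0.173 CPM in rested CD5lo replicate 3 (lowest). Ccna2 was lowest in rested CD5hi replicate 1 at 5.91 CPM, Plk1 in fresh CD5lo replicate 3 at 1.51 CPM, and Kif2c was highest in Treg replicate 1 at 1.63 CPM.

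The CD5hi-to-CD5lo difference of Ccnb1 changed with resting by 1.86 on the log2 scale, by the interaction term in edgeR. Without any 1 of 13 of the 16 naive libraries it no longer passed, and the rested CD5lo libraries held 10 to 21 counts of this gene.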

How the results depend on the processing

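No called gene changed direction under the alternatives run. With the replicate block the genes called between CD5hi and CD5lo cells rose from 8 to 15 when fresh and from 11 to 18 when rested, and a fit of the 2 rested groups alone called 7. Leaving out 1 library gave 4 to 10 calls when fresh, 8 to 17 when rested and 0 to 1 for the interaction. Over all genes, the block called 2806 in place of 1524 when fresh and 2372 in place of 1092 when rested, the 2 rested groups alone gave 495, and the interaction went from 60 to 354 with the block and 131 by DESeq2. In the other comparisons same-numbered libraries did not deviate together in every pair (correlations -0.113 to 0.0867), and the block gave 14, 16, 34 and 33 calls for resting in CD5lo, resting in CD5hi, Treg against CD5lo and Treg against CD5hi, where the fit without it gave 14, 16, 33 and 33. Calls that held under every alternative that gave a value numbered 12 of 14, 12 of 16, 31 of 33 and 32 of 33 in the same order. The causes were not tested. Another scaling moved the median of all genes by at most 0.0307 on the log2 scale. Aurkb, Bub1, Kif2c and Ccnb1 in rested CD5lo cells, and Bub1 in fresh CD5lo cells, rest on few counts.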
